A study of Mus musculus with 12 samples.

Results

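The mouse genes with Zfp symbols form a large group of zinc finger protein genes. Here 202 of them were compared across fibroblasts, fibroblasts 1 day into induction and pluripotent lines. They were chosen as the genes measured by a probe set whose only gene symbol is Zfp followed by a number, with Zfp42 left out, and they are 202 of the 9539 named genes in the deposited table. Each has 1 probe set. Expression was measured on 12 Affymetrix whole-transcript arrays in 4 groups of 3. The fibroblasts were at passage 3, and their strain label reads OG2-GFP/Rosa26-M2rtTA on the first array, with M3rtTA and M4rtTA in its place on the other arrays. OG2-GFP is a green fluorescent reporter driven by an Oct4 promoter, and Rosa26-M2rtTA drives a doxycycline-dependent activator from the broadly active Rosa26 locus. Day-1 cells were fibroblasts at passage 3 from mice made with OT-iPSC cells, labelled OG2-GFP/Rosa26-M2rtTA. For 1 day they were given ES medium and doxycycline, which turns on their Oct4 and Tet1 transgenes. The iPS cells were the single line OT#b, induced with Oct4 and Tet1, at passage 10 and of the same strain label. The ES cells were the single line R1, of strain 129, at passage 20. Both pluripotent lines grew on mitomycin-treated feeder fibroblasts, and removal of feeders by brief re-plating is described for the ES cells.

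Most Zfp genes encode proteins with a row of C2H2 zinc fingers that read a DNA sequence. Many also carry a KRAB domain, which recruits the corepressor Trim28 and, through it, the histone methyltransferase Setdb1, HP1 proteins and DNA methyltransferases. In pluripotent cells these complexes silence endogenous retroviruses and hold DNA methylation at imprinted loci. KRAB zinc finger genes lie in clusters that arose by repeated local duplication, so neighbours can be nearly identical in sequence. The Zfp symbol also covers unrelated families, such as the CCCH proteins of the Zfp36 family, which bind AU-rich elements in messenger RNA and trigger its decay.

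Several of the largest differences between fibroblasts and pluripotent cells lay in a cluster on chromosome 4, so the promoters of its members are shown first. The sequences are RefSeq promoter windows on GRCm38.p6, each 300 bases long around the annotated start, written in the direction of transcription. Of the 202 genes, 161 had an entry, and Zfp991 of the cluster is named only. Zfp600 lies at chr4:146156577-146156876 on the plus strand, Zfp979 at chr4:147642459-147642758 on the minus strand, Zfp980 at chr4:145670447-145670746 on the plus strand and Zfp982 at chr4:147492167-147492466 on the plus strand. Zfp600 is in lower case, and capitals in the other 3 mark bases that do not match it or lie outside the alignment. Where a gene has several windows, the one most alike is shown.
Zfp600: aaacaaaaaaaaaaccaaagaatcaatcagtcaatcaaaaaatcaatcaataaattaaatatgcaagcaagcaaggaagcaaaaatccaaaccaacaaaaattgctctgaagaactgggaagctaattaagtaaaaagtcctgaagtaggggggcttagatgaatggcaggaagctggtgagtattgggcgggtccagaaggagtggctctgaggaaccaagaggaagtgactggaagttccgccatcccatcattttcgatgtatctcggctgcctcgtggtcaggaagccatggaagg
Zfp979: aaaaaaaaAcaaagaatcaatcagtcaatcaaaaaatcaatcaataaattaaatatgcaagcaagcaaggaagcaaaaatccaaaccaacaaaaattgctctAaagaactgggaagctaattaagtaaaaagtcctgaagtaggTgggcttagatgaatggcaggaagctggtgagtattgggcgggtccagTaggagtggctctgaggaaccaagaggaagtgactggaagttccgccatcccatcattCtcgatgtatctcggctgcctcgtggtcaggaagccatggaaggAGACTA
Zfp980: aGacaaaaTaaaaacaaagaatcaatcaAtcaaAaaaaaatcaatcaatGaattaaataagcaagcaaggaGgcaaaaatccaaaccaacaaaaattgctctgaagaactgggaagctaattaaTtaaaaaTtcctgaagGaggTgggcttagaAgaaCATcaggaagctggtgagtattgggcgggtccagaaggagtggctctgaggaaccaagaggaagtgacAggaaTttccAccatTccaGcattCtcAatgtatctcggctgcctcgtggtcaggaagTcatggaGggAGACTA
Zfp982: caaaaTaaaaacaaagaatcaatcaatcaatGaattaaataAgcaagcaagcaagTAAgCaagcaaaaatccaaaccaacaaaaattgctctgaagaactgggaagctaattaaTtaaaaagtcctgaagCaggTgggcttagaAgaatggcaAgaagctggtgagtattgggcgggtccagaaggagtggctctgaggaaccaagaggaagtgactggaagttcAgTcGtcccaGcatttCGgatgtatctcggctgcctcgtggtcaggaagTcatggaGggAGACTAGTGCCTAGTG

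The Zfp979 window matched that of Zfp600 at 289 of 294 aligned bases, or 98.3%. Zfp980 matched at 271 of 294 aligned bases, or 92.2%, and Zfp982 at 264 of 280, or 94.3%. These percentages count aligned bases only and leave out the rest of each window. The next most similar window among the other genes with an entry was that of Zfp763, with 174 identical bases. Zfp933, at the far end of the same cluster at chr4:147848369-147848668 on the minus strand, matched at 167 of 236 aligned bases, or 70.8%. Its window is printed for contrast, with CpG dinucleotides in capitals.
Zfp933: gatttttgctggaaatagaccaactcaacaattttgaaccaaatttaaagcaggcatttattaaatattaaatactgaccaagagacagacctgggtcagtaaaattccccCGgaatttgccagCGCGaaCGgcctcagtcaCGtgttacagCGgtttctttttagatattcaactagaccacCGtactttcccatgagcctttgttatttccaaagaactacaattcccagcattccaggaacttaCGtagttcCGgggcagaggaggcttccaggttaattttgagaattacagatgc

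Zfp933 holds 9 CpGs, and the printed windows of Zfp600, Zfp979, Zfp980 and Zfp982 hold 5, 5, 3 and 5. Over the Zfp genes with an entry, the median of each gene's most CpG-rich window was 16, against 8 over the 27025 genes of the promoter table. Zfp982 has 3 windows, which hold 2 to 16 CpGs, and Zfp600 has 2, which hold 1 to 5.

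Some Zfp genes were higher and others lower in the pluripotent lines than in fibroblasts. The deposited values are on a log2 scale, so a difference of 1 is 2-fold. A gene was called when limma's adjusted p was under 0.05 and the log2 difference was at least 1. In iPS cells against fibroblasts, 49 members were higher, where 21.8% of all 9539 genes were called higher, and 42 were lower, where the share of all genes was 29.6%. The members' shares were 24.3% higher and 20.8% lower. In ES cells against fibroblasts, 48 members were higher, against 23.4% of all genes, and 33 were lower, against 32.1%. The members' shares were 23.8% and 16.3%. Both comparisons use the same fibroblast arrays. Cell type, passage and, for ES cells, strain differ together in them and cannot be told apart. The median log2 difference of the members was -0.04 in iPS cells and 0.07 in ES cells, where the median of all genes was -0.35 in each. The table holds only probe sets that vary, with a range of at least 0.51 over the arrays, so counts and medians describe members that had to differ somewhere. Of 396 RefSeq protein-coding genes that fit the naming rule, 200 are in the table, and the rest were not analysed here.

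**Figure D1:**
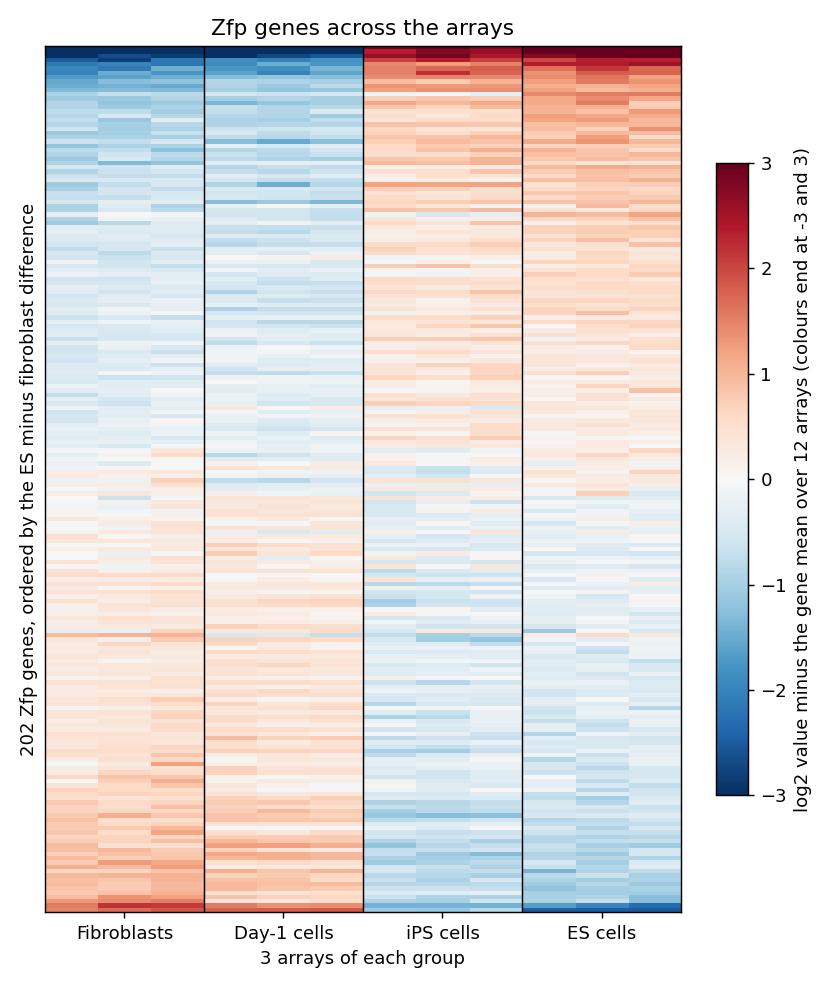
Rows are the 202 Zfp genes ordered by the ES minus fibroblast difference, columns are the 3 arrays of each group, and colour is the log2 value minus the gene's mean over all 12 arrays. Fibroblast and day-1 columns look alike, and the iPS and ES columns take the opposite colour at the top and bottom rows.

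The split of higher and lower calls moved with the scaling of the arrays, for the members and for all genes alike. The median over all genes was lower in the pluripotent lines. With arrays centred on the common median, 58 members were higher and 27 lower in iPS cells against fibroblasts, where the shares of all genes were 29.0% and 22.8%. In ES cells 78 were higher and 22 lower, where the shares of all genes were 33.8% and 23.7%. With quantile normalization the counts were 54 and 29 in iPS cells, beside 26.6% and 24.5% of all genes, and 66 and 30 in ES cells, beside 29.3% and 26.1%. Centring shifted the median of all genes from -0.35 to -0.10 in iPS cells and from -0.35 to 0.00 in ES cells. The members' median in iPS cells changed sign, from -0.04 to 0.21 with centring and 0.07 with quantile normalization. No named call changed direction under any setting tried. By mean level, 62 members were highest in ES cells, 51 in day-1 cells, 49 in fibroblasts and 40 in iPS cells. This ranking takes no account of replicate spread and was not tested. Over the 202 genes the median SD was 0.12 in fibroblasts, 0.10 in the day-1 cells, 0.12 in the iPS line and 0.14 in the ES line. The highest SD was 0.68 in fibroblasts, for Zfp974, and 0.58 in the ES line, for Zfp560.

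The chromosome 4 cluster held 5 of the 10 members with the largest increases in iPS cells. In the RefSeq gene order of GRCm38.p6 the cluster runs over 16 protein-coding genes from Zfp980 to Zfp933, of which 15 have Zfp symbols and the other is Rex2. The table measures 6 of them with a probe set of their own. Zfp980 measured 4.03, 3.58 and 3.09 in fibroblasts and 3.48, 3.77 and 3.79 in day-1 cells. It measured 9.98, 10.38 and 9.86 in iPS cells and 10.88, 11.18 and 11.21 in ES cells. Every pluripotent array was thus far above every fibroblast and day-1 array, and the 3 ES arrays were above the 3 iPS arrays. Zfp980 rose by 6.50 ± 0.20 (SE) in iPS cells, or 90.8-fold, with a limma adjusted p of 5.4e-12. In ES cells it rose by 7.52, or 184-fold, with a limma adjusted p of 1.1e-12.

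Zfp600, the gene whose promoter window served as the template above, measured 2.77, 3.36 and 3.16 in fibroblasts and 3.01, 3.30 and 3.47 in day-1 cells. Its iPS values were 8.63, 8.89 and 8.43, and its ES values 8.75, 9.37 and 9.05. The fibroblast cultures overlapped each other, as did the pluripotent lines. The gene rose by 5.55 ± 0.18 in iPS cells, or 46.9-fold, and by 5.96 in ES cells, or 62.1-fold, with limma adjusted p-values of 9.1e-12 and 3.3e-12. Zfp979, known as Ssm1b, directs strain-specific DNA methylation of a transgene. It measured 5.35, 5.03 and 5.70 in fibroblasts, 6.00, 5.81 and 6.06 in the day-1 cells, 9.89, 10.20 and 9.91 in the iPS line and 9.85, 10.18 and 10.17 in the ES line. The 2 pluripotent lines overlapped, and each day-1 array was above each fibroblast array. Zfp979 rose by 4.64 ± 0.15 in iPS cells and by 4.71 in ES cells. The day-1 difference was 0.60, below the 2-fold minimum, with a limma adjusted p of 0.0048.

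Zfp982 measured 4.38, 4.90 and 4.63 in fibroblasts, 4.79, 4.38 and 4.82 in the day-1 cells, 7.89, 8.59 and 8.13 in the iPS line and 7.73, 8.20 and 8.15 in the ES line. It rose by 3.56 ± 0.19 in iPS cells and by 3.39 in ES cells. Zfp991 measured 7.54, 7.61 and 7.51 in fibroblasts, 8.13, 7.93 and 8.25 in the day-1 cells, 10.37, 10.30 and 10.33 in the iPS line and 10.13, 10.06 and 10.21 in the ES line. Zfp991 rose by 2.78 ± 0.08 and 2.58, and its day-1 difference of 0.55, with a limma adjusted p of 9.5e-05, was under the 2-fold minimum. Zfp933, named because it ends the cluster and after its values were seen, did not rise. It measured 7.54, 7.71 and 7.58 in fibroblasts, 7.37, 7.35 and 7.31 in the day-1 cells, 6.65, 6.74 and 7.02 in the iPS line and 6.93, 7.19 and 6.96 in the ES line. Its differences of -0.81 ± 0.10 in iPS cells and -0.59 in ES cells, with limma adjusted p-values of 3.8e-06 and 7.7e-05, were under the 2-fold minimum.

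**Figure D2:**
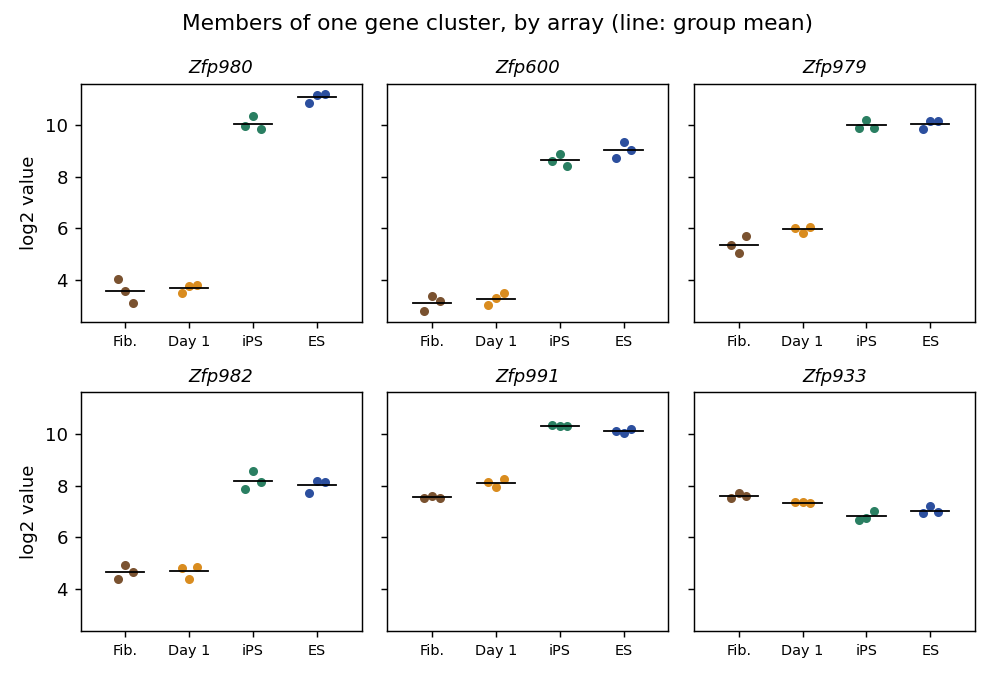
Dots are single arrays and lines group means on the log2 scale for Zfp980, Zfp600, Zfp979, Zfp982, Zfp991 and Zfp933, with 3 arrays each of fibroblasts, day-1, iPS and ES cells. The first 5 genes were higher in all 6 pluripotent arrays than in any other array, and Zfp933 was lower in them.

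Near-identical neighbours limit what these values say about a single gene. The promoter windows of 4 of them were alike, but no transcript sequences were compared. Whether a probe set named for one gene also reads transcripts of another was not tested. In bulk RNA, fewer cells of a type and less RNA per cell cannot be told apart. Fibroblast and day-1 values of Zfp600, Zfp980 and, outside the cluster, Zfp640 lay near the table's minimum of 2.43. Whether they exceed the arrays' background was not tested, and the folds of these genes rest on those low values.

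Elsewhere, neighbouring Zfp genes could move in opposite directions. In gene order, 93 of the 200 members that could be placed lay in 16 runs of 3 or more, with steps of at most 10 protein-coding genes. In 6 of the 16 runs, some members were called higher and others lower in iPS cells against fibroblasts. In that comparison 24.3% of all members were higher and 20.8% lower, beside 21.8% and 29.6% of all genes. Runs of other genes were not counted, so mixed runs are not shown to be particular to Zfp genes. The longest run has 16 members, from Zfp160 to Zfp13, of which 2 were higher and 5 lower in iPS cells, with differences from -2.25 for Zfp52 to 3.52 for Zfp229. Zfp229 rose by 3.52 ± 0.18 in iPS cells and by 3.67 in ES cells, while Zfp52 fell by 2.25 ± 0.15 and by 2.40. A run of 13 members from Zfp708 to Zfp273 held Zfp459, which rose by 3.49 ± 0.11 in iPS cells and by 4.50 in ES cells. Only 1 other member of that run, Zfp729b, was called higher in iPS cells, with a difference of 1.04. In the run of 8 members from Zfp871 to Zfp101, 4 were higher in iPS cells and 0 lower at the same threshold, with 1.55 for Zfp101 as the largest difference. The members Zfp729b and Zfp101 were picked after their values were seen.

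**Figure D3:**
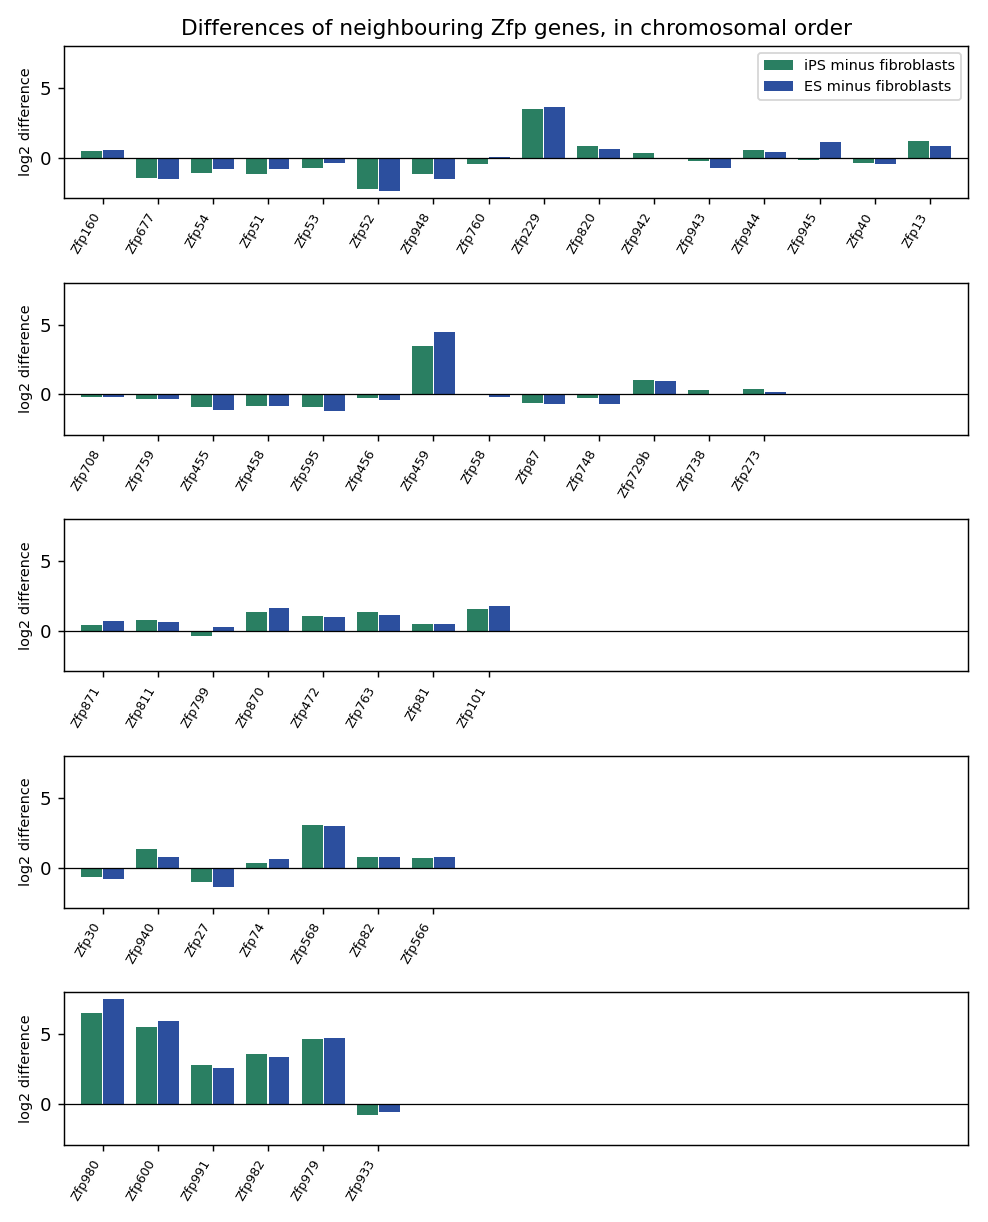
Bars are log2 differences of iPS and ES cells from fibroblasts for the Zfp genes of the 5 longest runs, in chromosomal order, without error bars. In the bottom row 5 of the 6 genes of the chromosome 4 cluster are above 2, while in the upper rows single genes such as Zfp229, Zfp459 and Zfp568 stand above low neighbours.

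Zfp640 showed the second largest increase and was not placed in a run of 3. It measured 3.65, 3.47 and 3.52 in fibroblasts, 3.37, 3.42 and 3.41 in the day-1 cells, 9.22, 9.60 and 9.47 in the iPS line and 10.93, 11.18 and 11.00 in the ES line. No pair of groups overlapped. The rise was 5.88 ± 0.10 in iPS cells, or 58.8-fold, and 7.49 in ES cells, or 179-fold, with limma adjusted p-values of 5.4e-14 and 6.4e-15.

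The gene lists used from here on were chosen with earlier results of these data known, so their counts do not test a group of genes. Of the KRAB zinc finger genes known for imprints or retroviruses, 7 of the 8 listed were measured by a probe set of their own. The other, Zfp932, is in the table only on a probe set shared with other genes. Among the 7, 4 were higher and 1 lower in iPS cells, where 21.8% and 29.6% of all genes were. In ES cells 5 were higher and 0 lower, where 23.4% and 32.1% of all genes were. Their median difference was 1.79 in iPS cells and 2.27 in ES cells, where all genes had -0.35 in each. Zfp57, which binds methylated imprinting control regions and keeps them methylated, measured 9.50, 9.46 and 9.68 in fibroblasts and 9.56, 9.69 and 9.57 in day-1 cells. It measured 11.28, 11.40 and 11.31 in iPS cells and 11.72, 11.98 and 11.73 in ES cells, so the ES arrays were the highest and did not overlap the iPS arrays. Zfp57 rose by 1.79 ± 0.09 in iPS cells, with a limma adjusted p of 3.0e-10, and by 2.27 in ES cells. Zfp445, which guards imprints alongside Zfp57, rose by 1.33 ± 0.08 in ES cells, and its difference of 0.99 in iPS cells fell just short of the 2-fold minimum.

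Zfp568 silences a placental promoter of Igf2. It measured 7.26, 7.34 and 7.48 in fibroblasts, 7.64, 7.77 and 7.68 in the day-1 cells, 10.37, 10.41 and 10.39 in the iPS line and 10.36, 10.56 and 10.15 in the ES line. The pluripotent lines overlapped, and the rise was 3.03 ± 0.10 in iPS cells and 3.00 in ES cells. Zfp819, a repressor of retroelements in pluripotent cells, rose by 2.65 ± 0.08 and 2.39. Zfp961 rose by 2.24 ± 0.11 in iPS cells and 2.72 in ES cells. Zfp708 had differences of -0.21 ± 0.16 and -0.22, with limma adjusted p-values of 0.22 and 0.20.

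Zfp809, which binds the primer binding site of murine leukaemia virus and recruits Trim28 to it, went the other way. It measured 10.05, 10.07 and 10.07 in fibroblasts, 9.49, 9.52 and 9.51 in the day-1 cells, 8.93, 8.85 and 8.87 in the iPS line and 9.48, 9.63 and 9.55 in the ES line. The iPS arrays were the lowest, and the day-1 and ES arrays lay between them and the fibroblasts. Zfp809 fell by 1.18 ± 0.06 in iPS cells, with a limma adjusted p of 5.5e-10. With arrays centred on the common median its difference was -0.93, and with quantile normalization -0.97, each under the 2-fold minimum. In ES cells the difference was -0.51.

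On a list likewise chosen with earlier results known, most of the measured partners of KRAB zinc finger proteins were higher in the pluripotent lines. Of 25 listed corepressor and chromatin genes, 22 were measured, and 13 were higher and 1 lower in iPS cells, where 21.8% and 29.6% of all genes were. In ES cells 15 were higher and 1 lower, where the shares of all genes were 23.4% and 32.1%. Their median difference was 1.24 in iPS cells and 1.41 in ES cells. Trim28, the corepressor itself, rose by 2.18 ± 0.07 in iPS cells and by 2.50 in ES cells. Hells, a remodelling ATPase needed for DNA methylation at repeats, rose by 4.38 ± 0.13 and 4.69, and Dnmt3b, a de novo DNA methyltransferase, by 3.50 ± 0.17 and 4.15. Setdb1 rose by 1.44 in ES cells, and its difference of 0.93 ± 0.09 in iPS cells was under the 2-fold minimum. The gene called lower in both lines was Chd3, a NuRD remodelling subunit, with differences of -1.24 ± 0.06 in iPS cells and -1.91 in ES cells. In day-1 cells 2 of the 22 were higher, where 3.46% of all genes were, and 0 were lower. These were Uhrf1, which guides maintenance DNA methylation, at 1.38, and the histone methyltransferase Suv39h2 at 1.24. Between iPS and ES cells, 0 of the 22 were called in either direction. Of all genes, 4.44% were higher and 2.45% lower there, so a count of 0 is near the background.

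Of 7 listed Zfp regulators of pluripotency, 6 were measured, and 2 were higher in iPS cells and 3 in ES cells, with 0 lower in either. The shares of all genes called higher were 21.8% and 23.4%, so the count in iPS cells was close to the background. Zfp296, a factor of pluripotent and germ cells, measured 7.08, 6.79 and 6.89 in fibroblasts, 6.61, 6.81 and 6.97 in the day-1 cells, 9.10, 8.97 and 9.10 in the iPS line and 9.11, 9.50 and 8.69 in the ES line. The 2 pluripotent lines overlapped, and so did the 2 fibroblast cultures. Zfp296 rose by 2.14 ± 0.16 in iPS cells, with a limma adjusted p of 2.7e-08, and by 2.18 in ES cells. Its promoter window, at chr7:19577037-19577336 on the plus strand of GRCm38.p6, is shown because it contains the octamer read by Oct4, the induced factor. Capitals mark the octamer, here in reverse complement.
Zfp296: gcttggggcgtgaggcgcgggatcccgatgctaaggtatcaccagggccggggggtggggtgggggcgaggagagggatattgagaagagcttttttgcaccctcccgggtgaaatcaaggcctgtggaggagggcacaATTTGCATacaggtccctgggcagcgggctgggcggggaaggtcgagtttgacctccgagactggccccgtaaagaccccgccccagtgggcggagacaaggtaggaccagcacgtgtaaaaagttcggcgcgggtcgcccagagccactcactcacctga

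The octamer searched was ATGCAAAT on both strands. It occurred in 1.74% of all 32851 promoter windows and in 1.94% of the 206 windows of Zfp genes. The Zfp genes with a match were Zfp120, Zfp263, Zfp296 and Zfp428. Against fibroblasts, Zfp120 was at 0.52 in iPS and 0.72 in ES cells and Zfp263 at 0.58 and 0.66, none of them called. Zfp428 was called higher in iPS cells, at 1.32, but not in ES cells, at 0.95. In day-1 cells, with Oct4 induced, Zfp296 differed by -0.12, with a limma adjusted p of 0.54. Whether Oct4 acts on these genes was not tested. A match describes the letters in the window and does not show binding.

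Zfp217, a component of CoREST repressor complexes, rose by 1.09 ± 0.12 in iPS cells and by 1.01 in ES cells. In ES cells its difference was 0.97 without fibroblast replicate 1, 0.98 without fibroblast replicate 2 and 0.85 without ES replicate 3, each under the 2-fold minimum. Zfp322a, an activator of Pou5f1 and Nanog, measured 7.41 ± 0.09 (SD, n = 3) in fibroblasts and 8.48 ± 0.04 in ES cells. It rose by 1.07 ± 0.09 (SE) in ES cells, with 0.66 in iPS cells. Zfp281, a partner and repressor of Nanog, measured 10.47 ± 0.14 (SD, n = 3) in fibroblasts, 9.82 ± 0.05 in the day-1 cells, 9.94 ± 0.04 in the iPS line and 10.46 ± 0.09 in the ES line. None of its differences from fibroblasts passed the 2-fold minimum. Zfp462 had a difference of 0.28 in iPS cells and of 0.95 in ES cells. Zfp131 had -0.28 and -0.79, and none of these was called.

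Within the Zfp36 family of RNA decay factors, 3 of 4 listed genes were measured, and 2 were lower in iPS cells and 1 in ES cells, where 29.6% and 32.1% of all genes were lower. Zfp36l2 measured 11.03, 10.83 and 10.95 in fibroblasts, 11.11, 11.18 and 11.11 in the day-1 cells, 9.17, 9.09 and 9.17 in the iPS line and 9.23, 9.27 and 9.19 in the ES line. It fell by 1.79 ± 0.07 in iPS cells and by 1.71 in ES cells, and in day-1 cells it was at 0.20 above fibroblasts. Zfp36l1 measured 10.75, 10.81 and 10.82 in fibroblasts, 9.32, 9.38 and 9.10 in the day-1 cells, 9.06, 8.81 and 9.01 in the iPS line and 10.05, 10.40 and 10.10 in the ES line. The 4 groups did not overlap, and the day-1 and iPS arrays were the low ones. Zfp36l1 fell by 1.53 ± 0.10 in day-1 cells, with a limma adjusted p of 1.1e-07, and by 1.84 in iPS cells, with 1.3e-09. In ES cells the difference was -0.61. Zfp36, or tristetraprolin, was not called in either line, with differences of -0.48 ± 0.11 and -0.64.

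**Figure D4:**
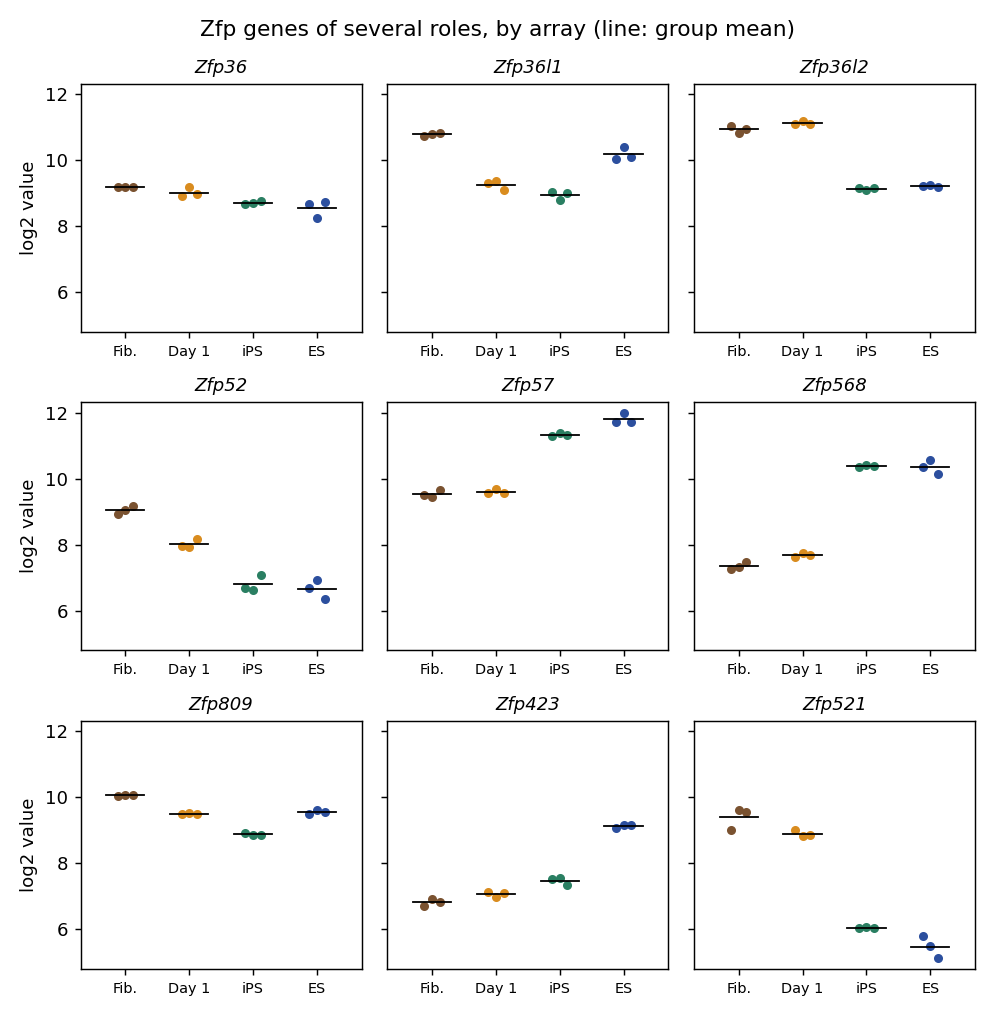
Dots are single arrays and lines group means on the log2 scale for 9 Zfp genes of several roles, with 3 arrays each of fibroblasts, day-1, iPS and ES cells. Zfp36l1 is low in day-1 and iPS cells, Zfp36l2 in iPS and ES cells, and Zfp423 is high in ES cells.

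Among 9 listed genes of mesenchyme and fat cell development, 6 were measured. In iPS cells 0 were higher and 5 lower, and in ES cells 1 was higher and 5 lower, where 29.6% and 32.1% of all genes were lower. Zfp521, which binds EBF factors and holds back fat cell differentiation, measured 9.01, 9.63 and 9.55 in fibroblasts, 9.02, 8.82 and 8.87 in the day-1 cells, 6.03, 6.06 and 6.05 in the iPS line and 5.81, 5.49 and 5.15 in the ES line. It fell by 3.35 ± 0.17 in iPS cells, the lowest value among the members there, and by 3.91 in ES cells. Its close relative Zfp423, a determinant of preadipocytes, took the other direction. Zfp423 measured 6.71, 6.93 and 6.83 in fibroblasts, 7.12, 6.98 and 7.10 in the day-1 cells, 7.53, 7.57 and 7.35 in the iPS line and 9.08, 9.15 and 9.18 in the ES line. It rose by 2.31 ± 0.08 in ES cells, or 4.96-fold, with a limma adjusted p of 1.1e-11, and its difference of 0.66 in iPS cells was not called.

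Zfp608 fell by 2.01 ± 0.15 in iPS cells and by 1.72 in ES cells. Zfp503, a developmental repressor of the NET family, fell by 1.82 ± 0.15 and 1.64. Zfp469, whose human counterpart is mutated in brittle cornea syndrome, fell by 1.53 ± 0.08 and 1.26, and its ES difference was -0.91 with arrays centred on the common median. Zfp467, which favours fat over bone differentiation, fell by 1.27 ± 0.12 and 1.08. In ES cells Zfp467 was at -0.73 with centred arrays, at -0.93 with quantile normalization and at -0.99 without ES replicate 2, all under the 2-fold minimum. Of 10 fibroblast markers, 7 were called lower in iPS cells and 10 in ES cells, where 29.6% and 32.1% of all genes were. Their mean over an array was 11.38 to 11.70 in fibroblasts. It was 8.56 to 8.68 in iPS cells and 7.75 to 8.20 in ES cells. The part of these markers in the result was not tested.

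The strongest loss in ES cells was that of Zfp9. It measured 8.47, 8.65 and 8.84 in fibroblasts, 8.74, 8.78 and 8.84 in the day-1 cells, 5.88, 5.85 and 6.16 in the iPS line and 4.53, 4.50 and 4.49 in the ES line. Fibroblasts and day-1 cells overlapped, and the 2 pluripotent lines did not. Zfp9 fell by 2.69 ± 0.10 in iPS cells and by 4.15 in ES cells, with limma adjusted p-values of 2.3e-11 and 4.4e-13. Zfp618 fell by 2.00 ± 0.13 in iPS cells and by 2.22 in ES cells, and Zfp800 fell by 1.90 ± 0.09 and 1.82. Zfp385a, a p53-related RNA-binding regulator, fell by 1.81 ± 0.13 in iPS cells and by 1.72 in ES cells. In ES cells the 10 lowest also included Zfp449 at -1.93, Zfp358 at -1.91, Zfp362 at -1.88, Zfp275 at -1.87 and Zfp637 at -1.74.

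Of 11 listed Zfp genes that act on RNA or ribosomes, 7 were measured, and 2 were higher and 2 lower in iPS cells, near the shares of all genes, 21.8% and 29.6%. In ES cells 4 were higher and 2 lower, where all genes had 23.4% and 32.1%. Zfp830, a splicing-linked factor, rose by 1.69 ± 0.13 in iPS cells and by 1.67 in ES cells, and the nucleolar Zfp330 rose by 1.19 ± 0.11 and 1.88. Zfp638, which silences unintegrated retroviral DNA together with the HUSH complex, rose by 1.53 ± 0.09 in ES cells, with 0.71 in iPS cells. Zfp106, an RNA-binding protein, rose by 1.10 ± 0.06 in ES cells, with 0.62 in iPS cells. Zfp346, which binds double-stranded RNA, fell by 1.09 ± 0.09 and 1.18. With arrays centred on the common median Zfp346 was at -0.84 in iPS cells and at -0.83 in ES cells, and with quantile normalization at -0.86 in each, so that its calls were lost. Zfp593, a factor of the pre-60S ribosome, had differences of 0.51 and -0.16 and was not called.

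Of 9 listed Zfp subunits of chromatin complexes, 5 were measured, and in iPS cells as in ES cells 2 were higher and 1 lower. The shares of all genes were 21.8% higher and 29.6% lower in iPS cells and 23.4% and 32.1% in ES cells. Zfp518a rose by 1.22 ± 0.16 in iPS cells and by 1.88 in ES cells. Its paralogue Zfp518b, a partner of G9a, rose by 1.32 ± 0.13 and 1.92. Zfp827, which recruits NuRD to telomeres, fell by 2.09 ± 0.09 in iPS cells and by 1.32 in ES cells, and the ES difference was -0.98 with centred arrays. Zfp219 had differences of 0.55 and 0.83, and Zfp711, a partner of the demethylase Phf8, had 0.46 and 0.64, none of them called. The 6 listed Zfp genes of neural development were not analysed here.

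After 1 day of doxycycline, 0 members were called higher, where 3.46% of all genes were, and 2 were called lower, where 4.33% of all genes were. By unadjusted p under 0.05 in limma, 41 members were higher and 45 lower, or 20.3% and 22.3%, where 33.5% and 28.0% of all genes were. The pair of lower genes was Zfp36l1, described above, and Zfp52. Zfp52 measured 8.94, 9.05 and 9.18 in fibroblasts, 7.98, 7.92 and 8.19 in the day-1 cells, 6.71, 6.64 and 7.09 in the iPS line and 6.69, 6.92 and 6.36 in the ES line. Its day-1 arrays lay between the fibroblast arrays and the pluripotent arrays without overlap. Zfp52 fell by 1.03 ± 0.15, with a limma adjusted p of 6.1e-05, but its difference was -0.97 without fibroblast replicate 3 or without day-1 replicate 2. The largest day-1 increase was that of Zfp367, chosen after its value was seen, at 0.85 ± 0.10 with a limma adjusted p of 1.2e-05. For 192 of the 202 members the 95% confidence interval of the day-1 difference lay within 2-fold in either direction. The members' median difference was 0.05, as for all genes. Markers of fibroblasts were lower too, with 3 of 10 called lower and array means of 11.05 to 11.13 in the day-1 cells against 11.38 to 11.70 in fibroblasts. Of 8 macrophage markers, 1 was called higher and 3 lower, with array means of 7.10 to 7.27 against 7.31 to 7.55. Their part in the result was not tested. Doxycycline, ES medium and the origin of the cells were not varied separately and cannot be told apart.

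In iPS cells against day-1 cells, 46 members were higher, where 17.6% of all genes were, and 34 were lower, where 26.6% of all genes were. With arrays centred on the common median the counts were 66 and 24, beside 24.5% and 19.8% of all genes, and with quantile normalization 60 and 30, beside 22.9% and 21.9%. This comparison shares the iPS arrays with that of iPS cells and fibroblasts. Stage, cell source and passage differ together in it and cannot be told apart. Zfp980 was 6.39 higher, Zfp640 6.03, Zfp600 5.39, Zfp979 4.04 and Zfp982 3.54. Below them came Zfp229 at 3.34, Zfp459 at 3.11, Zfp568 at 2.69, Zfp819 at 2.44 and Zfp975 at 2.28. At the other end Zfp521 was at -2.85, Zfp9 at -2.83, Zfp503 at -2.10, Zfp697 at -2.09 and Zfp36l2 at -1.99. Zfp445 was 1.04 higher, with 0.99 without day-1 replicate 3 and without iPS replicate 3, which is under the 2-fold minimum. Zfp36l1, also low in day-1 cells, differed by -0.31 ± 0.10 and was not called.

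Between the iPS and the ES line, 1 member was higher in iPS cells, where 4.44% of all genes were, and 6 were lower, where 2.45% of all genes were. For 190 of the 202 members the 95% confidence interval of the difference lay within 2-fold. Zfp9 was the gene higher in iPS cells, by 1.46 ± 0.10, with a limma adjusted p of 1.5e-07. Zfp423 was lower in iPS cells by 1.65 ± 0.08 and Zfp640 by 1.61 ± 0.10, with limma adjusted p-values of 1.2e-08 and 6.5e-08. Zfp36l1 was 2.34-fold lower, a log2 difference of -1.23 ± 0.10. Zfp945 measured 7.07, 6.71 and 6.93 in iPS cells and 8.21, 8.11 and 8.39 in ES cells, with 6.94, 7.19 and 7.12 in fibroblasts and 6.61, 6.64 and 6.46 in day-1 cells. Only the ES arrays stood apart upward, and the difference of iPS from ES cells was -1.33 ± 0.11, with a limma adjusted p of 5.2e-07.

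Zfp980 and Zfp459 were close to the 2-fold minimum. Zfp980 differed by -1.02 ± 0.20, with a limma adjusted p of 8.9e-04. Its value was -0.98 with quantile normalization, -0.97 without iPS replicate 1, -0.91 without iPS replicate 3, -0.97 without ES replicate 2 and -0.96 without ES replicate 3. Zfp459 differed by -1.02 ± 0.11, with -0.95 without iPS replicate 2 and -0.95 without ES replicate 3. The markers of fibroblasts, which also mark feeder cells, were not equal in the 2 lines. Of 10 such markers, 4 were higher and 1 lower in iPS cells, with array means of 8.56 to 8.68 in iPS cells and 7.75 to 8.20 in ES cells. The 10 pluripotency markers averaged 11.38 to 11.41 in iPS cells and 11.13 to 11.26 in ES cells, and 8 macrophage markers 6.24 to 6.44 and 6.20 to 6.27. The part of feeder cells in the result was not tested. Line, strain and passage differ together between the groups and cannot be told apart.

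**Figure D5:**
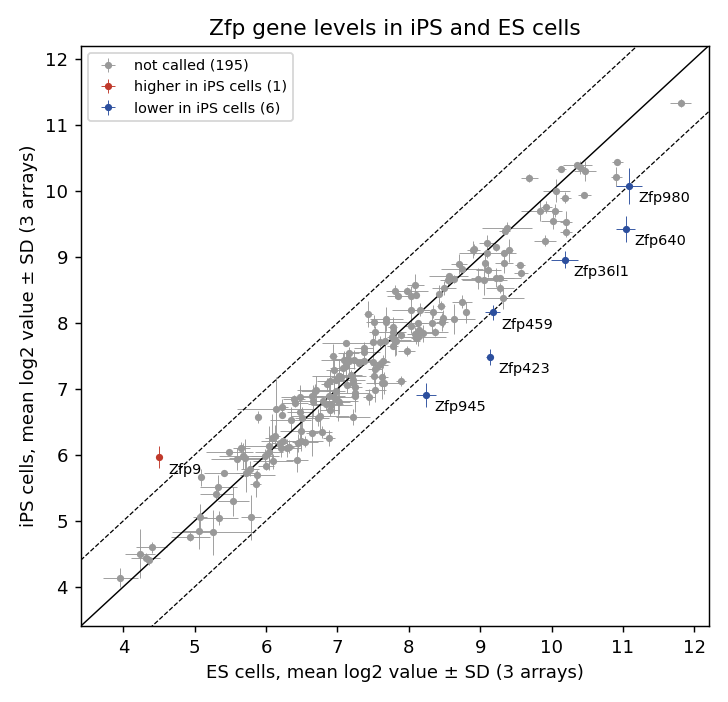
Each of the 202 Zfp genes is a dot at its mean log2 value in ES cells (x axis) and iPS cells (y axis), with bars for the SD over 3 arrays. The solid line is equality and the dashed lines a difference of 1; Zfp9 lies above the upper line and the 6 genes called lower in iPS cells lie below the lower line.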

How the data were processed

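Per the labels' protocols, total RNA was extracted with Trizol and labelled for Affymetrix whole-transcript arrays. The table used is the deposited table of log2 values per probe set, with the log2 scale taken from its range of 2.43 to 13.64. The authors' summarisation and normalization are not given in the sources used here. Of 10360 probe sets, 9542 had 1 symbol in the platform annotation, which gave 9539 genes, each kept as its brightest probe set. Of the members, 201 matched RefSeq by gene identifier.

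Differences were tested with limma 3.58.1 in R 4.3.3, with group means over all 12 arrays, eBayes and Benjamini-Hochberg adjustment over the 9539 genes. Genes were called at adjusted p below 0.05 with at least a 2-fold difference. Every adjusted p comes from limma. The fit was also run on simulated data in which each gene kept its mean over the 12 arrays and its spread. Some genes were shifted by a log2 difference of 1.25, 1.5, 2 or 3. In iPS cells against fibroblasts 98% to 100% of each size were called, with 0 of 9339 unchanged genes. In ES cells against fibroblasts 96% to 100% were called, with 1 of 9339. Every shift was above the 2-fold minimum and few genes were shifted, so this checks the code and does not measure error rates in these data. The labels do not say whether arrays of a group were separate cultures, and the p-values reflect the spread of these samples alone, which may be technical. Arrays of a group correlated with r from 0.988 to 0.997, and the number of arrays limits the precision.

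The members and lists were chosen with earlier results of these data known. Named genes are the 10 highest and 10 lowest called members of a comparison whose groups do not overlap, the measured members of the role lists, and up to 4 cofactors per comparison. The text prints part of these, and names further genes where it says so or where a count or run is completed. Promoters were aligned with Biopython 1.88. The alternatives were quantile normalization, centred arrays, a filter on dim genes, every probe set, a fit on 2 groups at a time, a robust prior with a trend, a block on replicate number, limma's treat, calls with no minimum on the fold, and dropping 1 array at a time.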

Additional observations from a re-analysis of the deposited data

Results flagged for a closer look

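For 7 genes the iPS minus ES difference was called, with a limma adjusted p under 0.05 and at least a 2-fold difference. Of all genes, 4.44% were called higher and 2.45% lower in this comparison. It shares its arrays with the comparisons of each line with fibroblasts. The calls of Zfp980 and Zfp459 were lost when some single arrays were left out. With limma's treat and a 2-fold minimum, only 1 higher and 2 lower members were called, beside 1.61% and 0.755% of all genes. The iPS minus ES difference was -1.23 for Zfp36l1, -1.65 for Zfp423, -1.02 for Zfp459, -1.61 for Zfp640, 1.46 for Zfp9, -1.33 for Zfp945 and -1.02 for Zfp980. With 3 arrays a group, no single array was tested as standing apart.

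Probe sets that the annotation gives to several genes were left out of all comparisons, and 16 of them hold a Zfp symbol. In 7 of these, or 43.75%, the lowest pluripotent array was at least 1 above the highest fibroblast array. The same held for 14.2% of the 9539 genes and 12.4% of the 202 members. Of the 7, 4 name genes of the chromosome 4 cluster and share symbols with each other. The set shared by Rex2, Zfp981, Zfp980, Zfp600, Zfp987 and Zfp979 had an iPS minus fibroblast difference of 5.64. The set shared by Zfp990, Zfp534, Zfp984, Zfp991, Zfp987, Zfp985, Gm13212, Zfp992, Zfp982 and Znf41-ps had 5.38. Further sets of that cluster had 3.48 (Zfp534, Zfp981, Zfp980, Zfp991, Zfp987, Zfp985, Zfp992 and Znf41-ps) and 2.12 (Zfp534, Zfp991, Zfp987, Zfp992 and Znf41-ps). The set shared by EU599041, Zfp936, Zfp975 and Zfp976 had 4.16, that of Gm38396, Zfp960, BC002059 and Zfp97 had 1.51, and that of Zfp850, Gm10046, Zfp607a, Zfp780b, Zfp607b, Zfp974, Zfp60 and Zfp59 had 1.18. In 1 of the 16, or 6.25%, shared by Gm10509, Zfp983 and Zfp51, every pluripotent array was at least 1 below every fibroblast array. Its differences were -2.17 in iPS cells and -1.74 in ES cells. The same rule held for 20.6% of the 9539 genes and 10.9% of the 202 members. These values cannot be assigned to a single gene.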

How the results depend on the processing

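Without a fold minimum, limma called 39 members higher and 44 lower in day-1 cells against fibroblasts, beside 31.1% and 26% of all genes. Against the same fibroblasts the counts were 96 and 91 in iPS cells (42% and 52.2% of all genes) and 95 and 91 in ES cells (43.2% and 51.7%). They were 35 and 58 in iPS against ES cells (30% and 27.7%) and 97 and 88 in iPS against day-1 cells (40.9% and 51.9%). With limma's treat the counts of higher and lower members, each beside the shares of all genes, were 0 and 1 in day-1 cells (1.21% and 2.1%), 32 and 28 in iPS cells (16.7% and 23.5%), 37 and 25 in ES cells (18.9% and 26.6%), 1 and 2 in iPS against ES cells (1.61% and 0.755%) and 29 and 24 in iPS against day-1 cells (12.6% and 20.2%). Centring gave 27 lower in iPS cells and 78 higher in ES cells, beside 22.8% and 33.8% of all genes. Leaving out the dimmest 25% of genes left 125 members, of which 32 were higher and 28 lower in iPS cells (all genes left 22.8% and 31.7%), 35 and 20 in ES cells (24.9% and 35.0%) and 0 and 4 in iPS against ES cells (4.89% and 2.00%). Leaving out 1 array of the compared groups at a time gave ranges of higher and lower members, with shares of all genes in brackets. They were 0 and 1 to 2 in day-1 cells (3.25% to 3.78% and 4.08% to 4.97%). In iPS cells they were 46 to 50 and 37 to 44 (21.6% to 22.0% and 29.0% to 29.9%). In ES cells they were 46 to 51 and 31 to 36 (23.2% to 23.6% and 31.7% to 32.3%). In iPS against ES cells they were 1 and 4 to 6 (4.03% to 5.11% and 2.34% to 2.66%). In iPS against day-1 cells they were 45 to 49 and 35 to 37 (17.4% to 17.8% and 26.2% to 27.1%). The lower count in day-1 cells was 1 without fibroblast replicate 3 and without day-1 replicate 2. Of 128 named calls, 24 lost the call under at least 1 setting, 21 of them under treat, and 0 changed direction. Same-numbered arrays did not deviate together, with correlations of -0.21 to 0.06, and a replicate block left every count of called members as it was: 49 and 42 in iPS cells and 48 and 33 in ES cells against fibroblasts.

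The median SE of a member's difference was 0.11, so differences near 1 cannot be placed firmly on either side of the minimum.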
